A study of Homo sapiens with 6 samples.

Results

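The genes of the G1/S transition and of DNA replication were examined in 2 human ovarian tumour lines after depletion of MEX3A, an RNA-binding protein that also carries a RING domain, the fold of many ubiquitin ligases. The group held 55 genes, listed by symbol as known replication genes and found with 1 row each among the 39282 genes of the deposited tables. The list was drawn up with earlier results of these data known. Shares of the group set beside those of all genes are therefore description and not a test. They were ordered by role, from the E2F and cyclin E regulators to origin licensing, the MCM2-7 helicase, helicase activation, polymerases, clamps, flap processing, fork protection, nucleotide supply and chromatin assembly. The knockdown groups were TOV21G and PA-1 cells infected with lentivirus carrying sh-MEX3A#1 (hairpin 1) or sh-MEX3A#2 (hairpin 2), and the control groups were the same lines infected with a scramble hairpin, sh-Ctrl. TOV21G is a line from an ovarian clear cell carcinoma and PA-1 is a line from an ovarian teratocarcinoma. Each line gave 1 library per hairpin and 1 control library, 6 in all. The design text of the series speaks of each depleted culture as a clone, and nothing in the labels gives separate cultures behind a library. The p-values therefore rest on the spread between the 2 hairpins of a line, with 1 library each, pooled over both lines in 1 fit. That spread may be technical or may be a difference between the hairpins, and the 2 cannot be told apart. Per its title, the study addressed p53 degradation and ferroptosis, a form of cell death.

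A cell that leaves G1 does so when cyclin-dependent kinases inactivate the retinoblastoma protein and free the activating E2F factors. These factors induce cyclin E and most of the genes needed to copy the genome. In G1 the origin recognition complex, CDC6 and CDT1 load the MCM2-7 ring onto DNA, which licenses an origin. At the start of S phase the kinase CDC7 with its partner DBF4, together with CDK2, turns the ring into the active CMG helicase by adding CDC45 and the GINS complex. Polymerases alpha, delta and epsilon then copy the strands with the PCNA clamp, the RFC clamp loader and the RPA proteins, while ribonucleotide reductase and other enzymes supply the deoxynucleotides. The mRNAs of these genes are abundant in cycling cells and scarce in arrested ones. In bulk RNA, fewer cells in S phase and less of these mRNAs per cell cannot be told apart.

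The activating E2F factors bind sites close to the transcription start, and 5 promoters are shown for that reason, chosen after their values were seen. They are from genes that DESeq2 called lower in TOV21G (below). An E2F match before the start was a condition for printing, except for RRM2, so the matches shown do not describe the called genes. Of the other called genes, MCM10, CDC45, CDC7, TK1 and ASF1B held no E2F match. The match in CDC6 lay after the start, and POLD3 had no window. RefSeq promoter windows (GRCh38.p14, 250 bases before to 50 after the start) were given for 46 of the 55 genes. The letters TTTGGCGC, TTTCGCGC, TTTCCCGC and TTTGCCGC, searched on both strands, were found in 21 of these 46 windows (45.7%), against 3.31% of the 35116 windows of all genes and 5.04% of the 12568 windows of the genes tested. The letters CCAAT stood in 24 of the 46 windows (52.2%), against 34.6% of all windows and 36.4% of those of genes tested. The letters TTTGAA, the core of the cell cycle homology region of late cell cycle genes, stood in 3 of 46 (6.52%), against 15.2% and 10.1%. None of these strings contains another, but matches can share bases. The median log2 fold change in TOV21G was -1.06 over the replication genes with an E2F match and -1.04 over those without, and in PA-1 it was -0.19 with a match and -0.21 without. Below, the 250 bases before the start are given 5′ to 3′ on the strand of the gene. Capitals mark the E2F letters in E2F1, E2F2, CDT1 and MCM6, and CCAAT in RRM2, whose window held none of the E2F strings. E2F1 lies at chr20:33686386-33686635 (minus strand), E2F2 at chr1:23531234-23531483 (minus), CDT1 at chr16:88803539-88803788 (plus), MCM6 at chr2:135876444-135876693 (minus) and RRM2 at chr2:10122489-10122738 (plus). Each run of capitals in MCM6 holds 2 overlapping matches, 1 per strand, and RRM2 holds CCAAT at 3 places. A match describes the letters in the window and does not show binding.
E2F1: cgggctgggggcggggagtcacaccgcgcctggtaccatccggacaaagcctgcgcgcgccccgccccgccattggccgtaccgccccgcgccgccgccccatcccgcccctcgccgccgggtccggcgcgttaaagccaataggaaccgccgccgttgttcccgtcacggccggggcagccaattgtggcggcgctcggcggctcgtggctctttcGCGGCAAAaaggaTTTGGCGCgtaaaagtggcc
E2F2: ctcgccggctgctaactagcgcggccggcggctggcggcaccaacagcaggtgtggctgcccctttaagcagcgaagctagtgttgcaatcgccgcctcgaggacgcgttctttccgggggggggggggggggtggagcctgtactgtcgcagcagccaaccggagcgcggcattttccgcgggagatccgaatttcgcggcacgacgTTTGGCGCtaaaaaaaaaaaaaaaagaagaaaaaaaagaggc
CDT1: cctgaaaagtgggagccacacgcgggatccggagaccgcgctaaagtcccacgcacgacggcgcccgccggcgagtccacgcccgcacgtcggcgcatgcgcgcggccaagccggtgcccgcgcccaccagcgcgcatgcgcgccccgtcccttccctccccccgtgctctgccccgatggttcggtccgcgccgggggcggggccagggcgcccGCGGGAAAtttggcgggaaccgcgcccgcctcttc
MCM6: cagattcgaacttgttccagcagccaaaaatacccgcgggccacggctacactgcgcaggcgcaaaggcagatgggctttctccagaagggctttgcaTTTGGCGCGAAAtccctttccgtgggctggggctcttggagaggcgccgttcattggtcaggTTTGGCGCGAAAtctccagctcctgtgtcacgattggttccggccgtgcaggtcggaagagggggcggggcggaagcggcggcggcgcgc
RRM2: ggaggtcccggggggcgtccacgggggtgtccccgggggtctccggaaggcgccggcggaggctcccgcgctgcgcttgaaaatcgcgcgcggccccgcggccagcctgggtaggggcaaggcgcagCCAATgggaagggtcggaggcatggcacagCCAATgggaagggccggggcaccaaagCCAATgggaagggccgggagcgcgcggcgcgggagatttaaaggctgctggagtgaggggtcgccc

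Levels are given as CPM, the expected count of a gene scaled to a fixed library total after TMM scaling in edgeR. Each library held between 14654628 and 19495162 expected counts, and the limit set by a count of 0, taken as 3 counts, came to 0.153 to 0.202 CPM. All 55 replication genes passed the filter on low counts, and the lowest count of any of them in any library was 44. MEX3A itself had 40.1 and 33.1 CPM with hairpins 1 and 2 in TOV21G, against 78.3 CPM in the control. In PA-1 it had 41.2 and 54.9 CPM under the hairpins, against 137 CPM in the control. All 4 hairpin libraries lay below their control. The log2 fold change of MEX3A, knockdown over control, was -1.10 (SE 0.29, edgeR adjusted p = 0.417) in TOV21G and -1.51 (SE 0.28, edgeR adjusted p = 1) in PA-1, and the DESeq2 adjusted p was 0.164 in TOV21G and 0.0478 in PA-1. The 7 teratocarcinoma markers summed to 53.8 and 84.9 CPM with the TOV21G hairpins, against 31.1 CPM in the control, and to 3493 and 4037 CPM with the PA-1 hairpins, against 4156 CPM, and LIN28B, DPPA4 and L1TD1 were at 0 in TOV21G. ANXA4, a gene on the clear cell marker list, was at 197 and 199 CPM with the TOV21G hairpins, against 649.7 CPM in the control, and at 30.3 and 28.9 CPM with the PA-1 hairpins, against 17.6 CPM. The list was split, since TFPI2 lay above its control in TOV21G, with 518.7 CPM for hairpin 1 and 442.9 CPM for hairpin 2, against 41.2 CPM, and is named after its values were seen. The epithelial marker EPCAM stood at 6.18 to 13.6 CPM in TOV21G and below 3 counts in PA-1, although the source is given as epithelial for both lines. KRT8 and KRT18 of the same list went the other way, named after their values were seen. They had 147.7 and 117.6 CPM in the PA-1 control, against 60.0 and 81.3 CPM in the TOV21G control. PTPRC and CD3E, which mark white blood cells, and HBB of red cells were below 3 counts in every library.

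In TOV21G the replication genes were lower with knockdown almost without exception, by about 2-fold at the median. The median log2 fold change over the 55 genes was -1.06, against 0.0241 over all 16855 genes tested. With hairpin 1 the median gene stood at 57.5% of its control level and with hairpin 2 at 38.3%. Both hairpins lay below the control for 54 of the 55 genes, against 31.9% of all genes, and 0 genes lay above it with both, against 31.3%. The exception on this scale was CCNE1. GINS3, named after its values were seen, was all but level with hairpin 2, at 99.6% of its control. With RLE or upper-quartile scaling, or on the TPM scale, both hairpins lay below for 53 genes. A drop of at least 2-fold with both hairpins was seen for 19 genes (34.5%), against 3.36% of all genes, and with at least 1 hairpin for 45 genes (81.8%), against 15.2%. The summed level of the group was 1760 and 1240 CPM with hairpins 1 and 2, against 3070 CPM in the control.

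In PA-1 the same genes lay close to their control. The median log2 fold change was -0.21, against 0 over all genes tested, and the median gene stood at 90.9% of its control with hairpin 1 and at 81.0% with hairpin 2. Both hairpins lay below the control for 42 of 55 genes, against 34.0% of all genes, and both lay above it for 3 genes, against 33.8%. On the TPM scale or with library totals alone, both hairpins lay below for 35. Those 3 were RRM2, DNA2 and GINS3, a GINS subunit named here after its values were seen. No gene was at least 2-fold lower with both hairpins, against 0.682% of all genes. MCM3 with hairpin 2 was the single gene at least 2-fold lower with 1 hairpin, against 3.99% of all genes. In all 4 hairpin libraries of both lines, 41 genes lay below their control, against 15.0% of all genes. The summed level was 4760 and 4230 CPM under the hairpins, against 5280 CPM in the control.

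**Figure D1:**
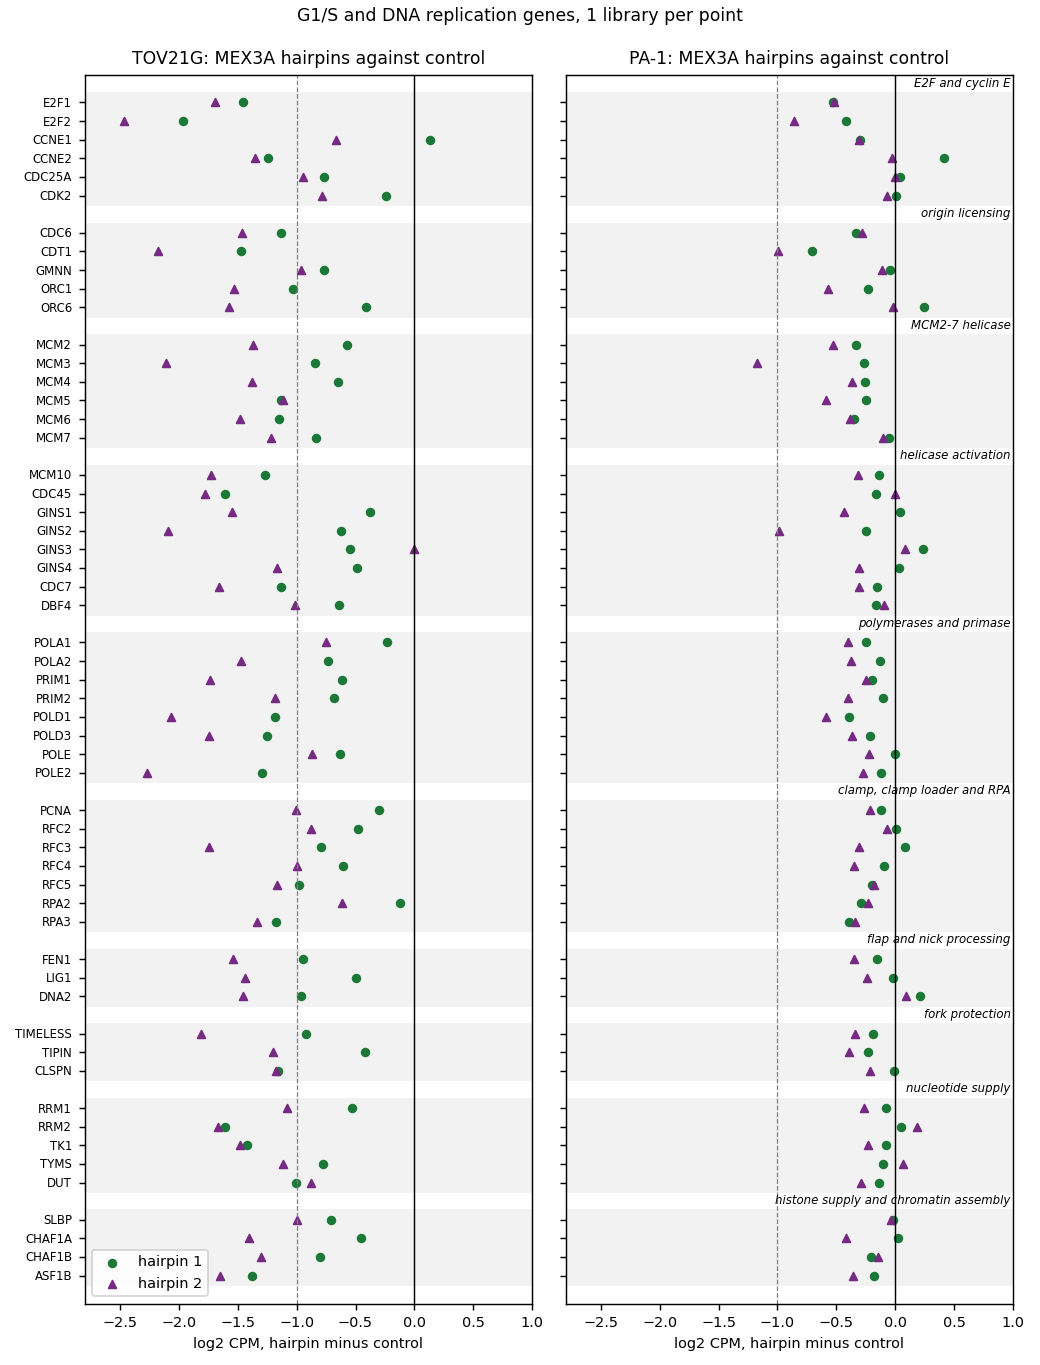
Difference in log2 CPM between each hairpin library and the control library of its line for the 55 genes, ordered by role, with TOV21G on the left and PA-1 on the right; circles are hairpin 1, triangles hairpin 2, the solid line is no difference and the dashed line a 2-fold lower level. In TOV21G 54 genes have both points below the control line, and in PA-1 42 genes do, with most points near it.

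**Figure D2:**
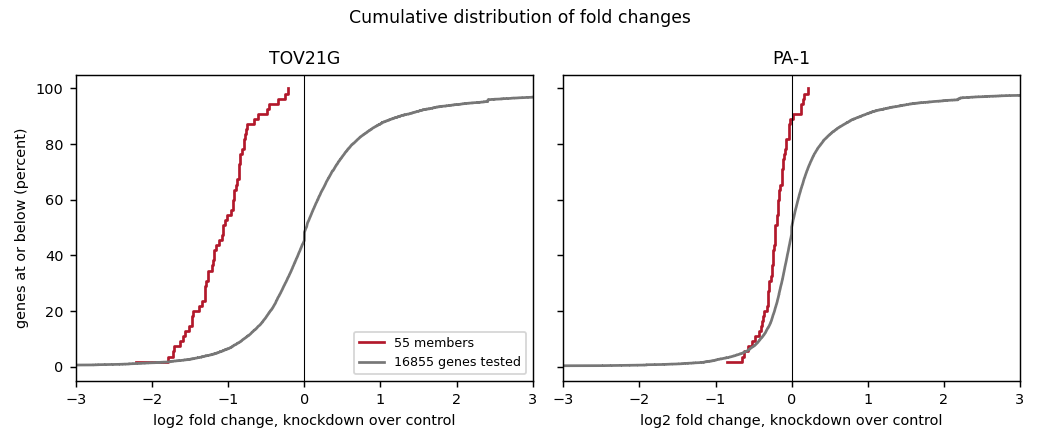
Percent of genes with a log2 fold change (knockdown over control) at or below the value on the horizontal axis, for the 55 replication genes in red and all 16855 genes tested in grey. The curve of the replication genes lies left of zero along its whole length in TOV21G, with a median of -1.06, and closer to zero in PA-1, with a median of -0.21.

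With edgeR's quasi-likelihood test and Benjamini-Hochberg adjustment, no gene passed 0.05 in TOV21G, in PA-1 or in the difference between the lines, so 0 of the 55 passed (0% of all genes each time). At an unadjusted p under 0.05, 37 of the 55 genes were lower in TOV21G (67.3%, against 5.41% of all genes tested) and none were in PA-1 (against 0.392%). Both counts use 1 spread pooled over the lines. Its biological coefficient of variation was 0.295, against 0.164 with PA-1 fitted alone and 0.387 with TOV21G fitted alone. PA-1 was therefore tested against a wider spread than its own, and TOV21G against a narrower one. Adjusted p-values of the replication genes in TOV21G ran from 0.382 to 0.885. DESeq2 called 12 of them lower in TOV21G (21.8%, against 0.783% of all genes), none in PA-1 (against 0.0119%) and none in the difference (against 0.0771%). The voom method of limma called none in any of the 3 comparisons. The 12 were E2F1, E2F2, CDC6, CDT1, MCM6, MCM10, CDC45, CDC7, POLD3, RRM2, TK1 and ASF1B, and each lay below its control with both TOV21G hairpins. Without TOV21G hairpin 1, the median log2 fold change of the 55 genes in TOV21G was -1.38, against 0 over all genes tested. That fit sets 1 library against 1 and takes its spread from PA-1. Counts over all genes tested moved with the fit too. With TOV21G fitted alone, 389 of 15134 genes were lower at an unadjusted p under 0.05. In that fit, 24 of the 55 were among them. Without TOV21G hairpin 2, the median log2 fold change of the 55 genes in TOV21G was -0.803, against 0 over all genes tested. Dropping hairpin 1 of PA-1 instead gave -1.07, against 0.0232, and dropping its hairpin 2 gave -1.06, against 0.0236.

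Other RNAs moved in the same libraries. MALAT1, a nuclear long noncoding RNA, had 9429 and 18460 CPM with the TOV21G hairpins, against 4315 CPM in the control, and 1303 and 1113 CPM with the PA-1 hairpins, against 909.5 CPM. NEAT1, another nuclear RNA, had 1133 and 1068 CPM against 360.9 CPM in TOV21G, and 270.5 and 273.2 CPM against 119.3 CPM in PA-1. The share of counts in ribosomal protein genes was 4.54% and 4.24% with the TOV21G hairpins, against 4.99% in the control, and 4.8% and 5.02% with the PA-1 hairpins, against 5.53%. LIN28A of the teratocarcinoma list had 42.1 and 78.3 CPM with the TOV21G hairpins, against 22.3 CPM, and POU5F1 had 1044 and 1258 CPM with the PA-1 hairpins, against 468.1 CPM, both named after their values were seen. The summed level of the 5 clear cell markers was 2434 and 4550 CPM with the TOV21G hairpins, against 6891 CPM, and 944 and 937 CPM with the PA-1 hairpins, against 187 CPM. The 5 epithelial markers summed to 266 and 234 CPM with the TOV21G hairpins, against 155 CPM, and to 295 and 401 CPM with the PA-1 hairpins, against 268 CPM, with KRT7 at 0 in PA-1. The 8 blood, endothelial and fibroblast markers, of which 4 passed the filter, summed to 11.4 and 20.9 CPM with the TOV21G hairpins, against 9.42 CPM, and to 57.0 and 90.2 CPM with the PA-1 hairpins, against 83.7 CPM, most of it PECAM1. The part of these shifts in the levels of the replication genes was not tested.

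Among the E2F and cyclin E regulators, E2F1 and E2F2, both activating factors, were among the genes furthest below control in TOV21G. E2F1 had 6.0 and 5.04 CPM with hairpins 1 and 2, against 16.6 CPM in the control. Its log2 fold change was -1.59 (SE 0.27, DESeq2 adjusted p = 0.0422). In PA-1 E2F1 had 20.8 and 20.9 CPM under the hairpins, against 30.0 CPM, a log2 fold change of -0.53 (SE 0.27). The hairpins gave almost the same value in each line and both lay under the control. E2F2, the other activating factor measured in the group, had 7.19 and 5.04 CPM with the TOV21G hairpins, against 28.4 CPM in the control. That is a log2 fold change of -2.21 (SE 0.37, DESeq2 adjusted p = 0.0141), the lowest of the 55 genes. In PA-1 E2F2 had 7.83 and 5.75 CPM, against 10.51 CPM (-0.63, SE 0.38). Knockdown libraries of both lines thus held like levels of E2F2, while the TOV21G control stood above the PA-1 control. The third activating factor, E2F3, is not in the group and is named here after its values were seen. It had 84.9 and 95.8 CPM with the TOV21G hairpins, against 72.1 CPM in the control (0.33, SE 0.25), and 82.1 and 73.6 CPM with the PA-1 hairpins, against 92.7 CPM (-0.25, SE 0.24).

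The 2 E-type cyclins, the partners that activate CDK2 at G1/S, went apart. CCNE2 had 5.80 and 5.38 CPM with the TOV21G hairpins, against 13.9 CPM in the control (log2 fold change -1.31, SE 0.36). In PA-1 it had 8.62 and 6.31 CPM, against 6.42 CPM, so hairpin 1 lay above the control and hairpin 2 just below it. CCNE1 had 27.9 CPM with TOV21G hairpin 1 and 15.9 CPM with hairpin 2, against 25.4 CPM in the control, so the control lay between the hairpins. Its log2 fold change in TOV21G was -0.21 (SE 0.39), and 0.13 without hairpin 2. In PA-1 CCNE1 had 21.1 and 20.9 CPM, against 25.9 CPM. On the TPM scale, which corrects for length, the ratio of CCNE1 to CCNE2 was 6.48 and 4.37 with the TOV21G hairpins, against 2.67 in the control. In PA-1 that ratio was 3.51 and 4.90, against 5.53. CDC25A, the phosphatase that removes the inhibitory phosphates of CDK2, had 23.0 and 20.4 CPM in TOV21G knockdown, against 39.3 CPM, and 70.1 and 68.3 CPM in PA-1 knockdown, against 68.3 CPM. In this group 4 of 6 genes had an unadjusted p under 0.05 in TOV21G, all lower, and 0 of 6 in PA-1.

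Origin licensing genes lay lower in TOV21G, with 4 of 5 at an unadjusted p under 0.05 and a median log2 fold change of -1.27. CDT1, which brings the MCM ring to the origin, had 8.51 and 5.17 CPM under the hairpins, against 23.8 CPM in the control. Its log2 fold change was -1.80 (SE 0.36, DESeq2 adjusted p = 0.0202). In PA-1 CDT1 had 44.4 and 36.3 CPM, against 72.4 CPM, a log2 fold change of -0.84 (SE 0.36, edgeR unadjusted p = 0.0622). This was the smallest unadjusted p of the 55 genes in PA-1, and all 4 hairpin libraries lay clearly below their controls. CDC6, the ATPase that works with CDT1 in loading, had 25.1 and 19.95 CPM in TOV21G knockdown, against 55.2 CPM (-1.29, SE 0.25, DESeq2 adjusted p = 0.0295). In PA-1 it had 91.7 and 95.1 CPM, against 116 CPM (-0.31, SE 0.26). GMNN encodes geminin, which binds CDT1 and blocks loading again after S phase has begun. It had 19.8 and 17.2 CPM in TOV21G knockdown, against 33.7 CPM (-0.87, SE 0.24), and 73.5 and 70.4 CPM in PA-1 knockdown, against 76.0 CPM (-0.08, SE 0.24). CDT1 therefore lay further below control than its inhibitor did. The TPM ratio of CDT1 to GMNN was 0.171 and 0.123 with the TOV21G hairpins, against 0.290 in the control, and 0.254 and 0.219 with the PA-1 hairpins, against 0.400.

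The 6 subunits of the MCM2-7 ring lay below control with both hairpins in both lines on the CPM scale. In TOV21G their log2 fold changes ran from -1.35 to -0.92, and 4 of the 6 had an unadjusted p under 0.05. In PA-1 they ran from -0.65 to -0.08, with 0 of 6. MCM6 had 44.5 and 35.3 CPM with the TOV21G hairpins, against 98.8 CPM in the control. Its log2 fold change was -1.31 (SE 0.25, DESeq2 adjusted p = 0.0167), the single DESeq2 call among the subunits. MCM5 had 22.8 and 23.0 CPM, against 50.1 CPM, and MCM7 had 104 and 80.01 CPM, against 186 CPM, both in TOV21G. The hairpins of TOV21G were close for MCM5 and further apart for the others. MCM2 had 60.9 and 34.8 CPM, against 90.5 CPM in the TOV21G control, and MCM4 had 91.0 and 54.8 CPM, against 143 CPM. Among the subunits MCM3 differed most between hairpins in both lines. It had 72.2 CPM with hairpin 1 and 30.0 CPM with hairpin 2 in TOV21G, against 130 CPM, and 293 and 156 CPM in PA-1, against 352 CPM. On the TPM scale MCM7 in PA-1 was at 266.5 and 242.4 TPM under the hairpins, against 261.4 TPM.

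In PA-1 knockdown, MCM2 had 175 and 153 CPM, against 220 CPM, MCM4 had 376 and 349 CPM, against 449 CPM, and MCM6 had 207 and 203 CPM, against 265 CPM. MCM5 had 124 and 97.8 CPM, against 147 CPM, and MCM7 had 256 and 247 CPM, against 265 CPM. The ring holds its subunits in equal number, so their levels per length can be set side by side as TPM. The summed TPM of the subunits was 299 and 170 with the TOV21G hairpins, against 465 in the control, and 1100 and 863 with the PA-1 hairpins, against 1220. MCM5 was the lowest subunit in each of the 6 libraries, from 14.5 TPM with TOV21G hairpin 2 to 108 TPM in the PA-1 control. MCM7 was the highest in 5 of them, and in the PA-1 control MCM3 at 274 TPM was. The level of the highest subunit was 5.73 and 4.71 times that of the lowest with the TOV21G hairpins, against 4.97 in the control, and 2.73 and 3.43 times with the PA-1 hairpins, against 2.52.

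**Figure D3:**
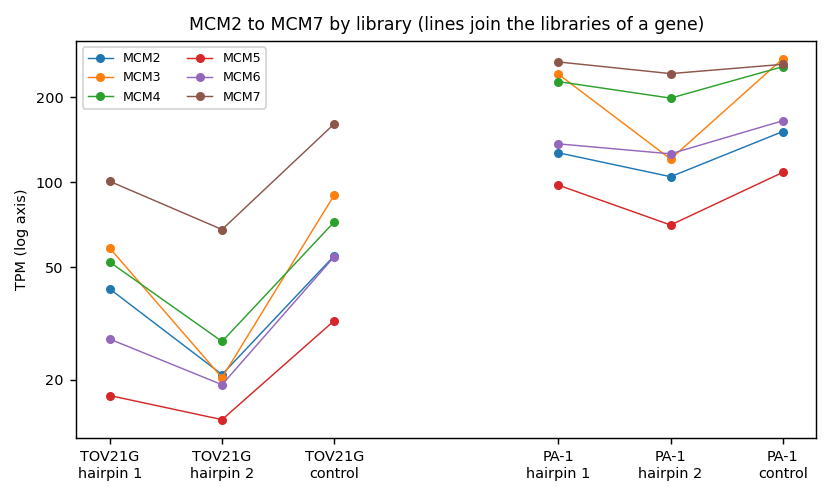
TPM of the 6 MCM2-7 subunits in each library on a log axis, with TOV21G on the left and PA-1 on the right; points are single libraries and lines join the libraries of a gene within a line. Every subunit lies lower with both hairpins than in the control in TOV21G, and MCM5 is the lowest subunit in each library.

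Genes that turn the loaded ring into the CMG helicase held some of the lowest fold changes of the 55. CDC45, the helicase subunit that is limiting for origin firing in several systems, had 6.13 and 5.44 CPM with the TOV21G hairpins, against 19.0 CPM in the control. Its log2 fold change was -1.71 (SE 0.28, DESeq2 adjusted p = 0.0326). In PA-1 CDC45 had 14.9 and 16.7 CPM, against 16.7 CPM, so hairpin 2 lay at the control level. MCM10, which is needed for the new helicase to start moving, had 28.6 and 20.7 CPM in TOV21G knockdown, against 68.9 CPM (-1.48, SE 0.29, DESeq2 adjusted p = 0.023). In PA-1 MCM10 had 60.1 and 53.0 CPM, against 66.1 CPM (-0.22, SE 0.29). CDC7, the kinase that phosphorylates the MCM ring, had 18.4 and 12.8 CPM in TOV21G knockdown, against 40.6 CPM (-1.38, SE 0.30, DESeq2 adjusted p = 0.0495), and 80.6 and 72.6 CPM in PA-1 knockdown, against 89.6 CPM (-0.23, SE 0.30). GINS2, a subunit of the GINS complex, had 9.69 CPM with TOV21G hairpin 1 and 3.43 CPM with hairpin 2, against 15.0 CPM. The gap between these hairpins was the widest of the 55 genes in TOV21G, a log2 difference of -1.47 (hairpin 2 minus hairpin 1). In PA-1 GINS2 had 51.6 and 30.9 CPM, against 61.4 CPM. The summed TPM of the 4 GINS subunits was 53.3 and 32.0 in TOV21G knockdown, against 66.0, and 187 and 127 in PA-1 knockdown, against 180. Of the 8 genes in this group 4 had an unadjusted p under 0.05 in TOV21G and 0 in PA-1.

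On the CPM scale all 8 polymerase and primase genes lay below control with both hairpins in both lines, with medians of -1.07 in TOV21G and -0.25 in PA-1. POLE with PA-1 hairpin 1 was all but level, at 232.0 CPM against 232.2 CPM. On the TPM scale it lay above the control, at 71.7 TPM against 67.4 TPM. Of the 8, 6 had an unadjusted p under 0.05 in TOV21G and 0 in PA-1. POLD3, an accessory subunit of the lagging-strand polymerase delta, had 21.7 and 15.3 CPM in TOV21G knockdown, against 51.8 CPM in the control. Its log2 fold change was -1.48 (SE 0.29, DESeq2 adjusted p = 0.029), and in PA-1 it had 54.0 and 48.6 CPM, against 62.8 CPM (-0.29, SE 0.30). POLD1, the catalytic subunit of polymerase delta, had 18.6 and 10.0 CPM in TOV21G knockdown, against 42.4 CPM (-1.57, SE 0.40). In PA-1 it had 59.3 and 51.6 CPM, against 77.6 CPM (-0.49, SE 0.40). POLE2, a subunit of the leading-strand polymerase epsilon, had 5.93 and 2.96 CPM in TOV21G knockdown, against 14.74 CPM (-1.73, SE 0.44), and 26.6 and 24.0 CPM in PA-1 knockdown, against 28.9 CPM (-0.19, SE 0.43). The 4 genes of the polymerase alpha and primase complex, which lays the primers, summed to 60.8 and 30.2 TPM in TOV21G knockdown, against 79.9 TPM, and to 180 and 152 TPM in PA-1 knockdown, against 194 TPM.

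The sliding clamp, its loader and RPA lay less far below control than the other groups in TOV21G, with a median of -0.79 and 4 of 7 genes at an unadjusted p under 0.05. No test of that difference between groups was made. RFC5, a clamp loader subunit, had 16.8 and 14.65 CPM in TOV21G knockdown, against 33.1 CPM (-1.07, SE 0.24), and 36.3 and 36.8 CPM in PA-1 knockdown, against 41.7 CPM (-0.19, SE 0.25). RPA3, the smallest subunit of the single-strand binding complex, had 8.64 and 7.73 CPM in TOV21G knockdown, against 19.7 CPM (-1.27, SE 0.26). In PA-1 RPA3 had 22.02 and 22.8 CPM, against 29.02 CPM (-0.37, SE 0.26). The RFC2 to RFC5 subunits summed to 130 and 80.4 TPM in TOV21G knockdown, against 190 TPM in the control, and to 366 and 299 TPM in PA-1 knockdown, against 354 TPM. DESeq2 called 0 of the 7 in either line.

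Flap processing joins the lagging-strand fragments. FEN1, the flap nuclease, had 25.1 and 16.7 CPM in TOV21G knockdown, against 48.7 CPM (-1.22, SE 0.32), and 95.9 and 84.0 CPM in PA-1 knockdown, against 107 CPM (-0.25, SE 0.32). DNA2, a nuclease and helicase that trims long flaps, had 29.9 and 21.3 CPM in TOV21G knockdown, against 58.5 CPM (-1.19, SE 0.29). In PA-1 DNA2 had 63.5 and 58.2 CPM, against 54.7 CPM (0.15, SE 0.30), so both hairpins lay above the control there. The fork protection proteins keep helicase and polymerase together. CLSPN, the claspin adaptor for checkpoint signals, had 26.6 and 26.4 CPM in TOV21G knockdown, against 59.6 CPM (-1.17, SE 0.23), and 97.4 and 84.8 CPM in PA-1 knockdown, against 98.1 CPM (-0.11, SE 0.24). TIMELESS had 34.2 and 18.4 CPM in TOV21G knockdown, against 65.0 CPM (-1.31, SE 0.40), and 139 and 125 CPM in PA-1 knockdown, against 158 CPM (-0.26, SE 0.40). Its partner TIPIN had 11.4 and 6.58 CPM in TOV21G knockdown, against 15.3 CPM (-0.76, SE 0.39), and 25.9 and 23.2 CPM in PA-1 knockdown, against 30.4 CPM. At an unadjusted p under 0.05 in TOV21G, 2 of the 3 flap and nick genes and 2 of the 3 fork protection genes were lower. DESeq2 called none of these 6 genes in either line.

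Nucleotide supply held the gene with the smallest p-value of the group. RRM2, the regulatory subunit of ribonucleotide reductase made in S phase, had 71.5 and 68.5 CPM with the TOV21G hairpins, against 218 CPM in the control. The hairpins lay close to each other and far below the control, a log2 fold change of -1.64 (SE 0.22, edgeR unadjusted p = 0.000658, DESeq2 adjusted p = 0.000264). In PA-1 RRM2 had 111 and 122 CPM, against 107 CPM, so both hairpins lay slightly above the control (0.12, SE 0.23). RRM1, the catalytic subunit whose mRNA varies less over the cell cycle, had 60.6 and 41.4 CPM in TOV21G knockdown, against 87.8 CPM (-0.78, SE 0.31). In PA-1 RRM1 had 175 and 154 CPM, against 185 CPM (-0.17, SE 0.31). The TPM ratio of RRM2 to RRM1 was 1.14 and 1.59 with the TOV21G hairpins, against 2.40 in the control, and 0.612 and 0.760 with the PA-1 hairpins, against 0.559. TK1, the thymidine kinase of the salvage route, had 13.1 and 12.6 CPM in TOV21G knockdown, against 35.3 CPM (-1.46, SE 0.25, DESeq2 adjusted p = 0.0292), and 27.7 and 24.9 CPM in PA-1 knockdown, against 29.3 CPM (-0.15, SE 0.25). DUT, which clears dUTP before it enters DNA, had 27.0 and 29.4 CPM in TOV21G knockdown, against 54.2 CPM (-0.94, SE 0.24), and 56.1 and 50.4 CPM in PA-1 knockdown, against 61.7 CPM. In this group 4 of 5 genes had an unadjusted p under 0.05 in TOV21G and 0 of 5 in PA-1.

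Histone supply and chromatin assembly follow the fork. ASF1B, a chaperone that hands new histones to the assembly factor, had 15.0 and 12.4 CPM in TOV21G knockdown, against 39.3 CPM (-1.52, SE 0.26, DESeq2 adjusted p = 0.023), and 33.4 and 29.6 CPM in PA-1 knockdown, against 37.9 CPM (-0.27, SE 0.27). SLBP, which binds the stem-loop of histone mRNAs, had 49.6 and 40.7 CPM in TOV21G knockdown, against 81.3 CPM (-0.85, SE 0.25). In PA-1 SLBP had 65.5 and 64.9 CPM, against 66.5 CPM (-0.03, SE 0.25). Of these 4 genes 3 had an unadjusted p under 0.05 in TOV21G and 0 in PA-1.

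**Figure D4:**
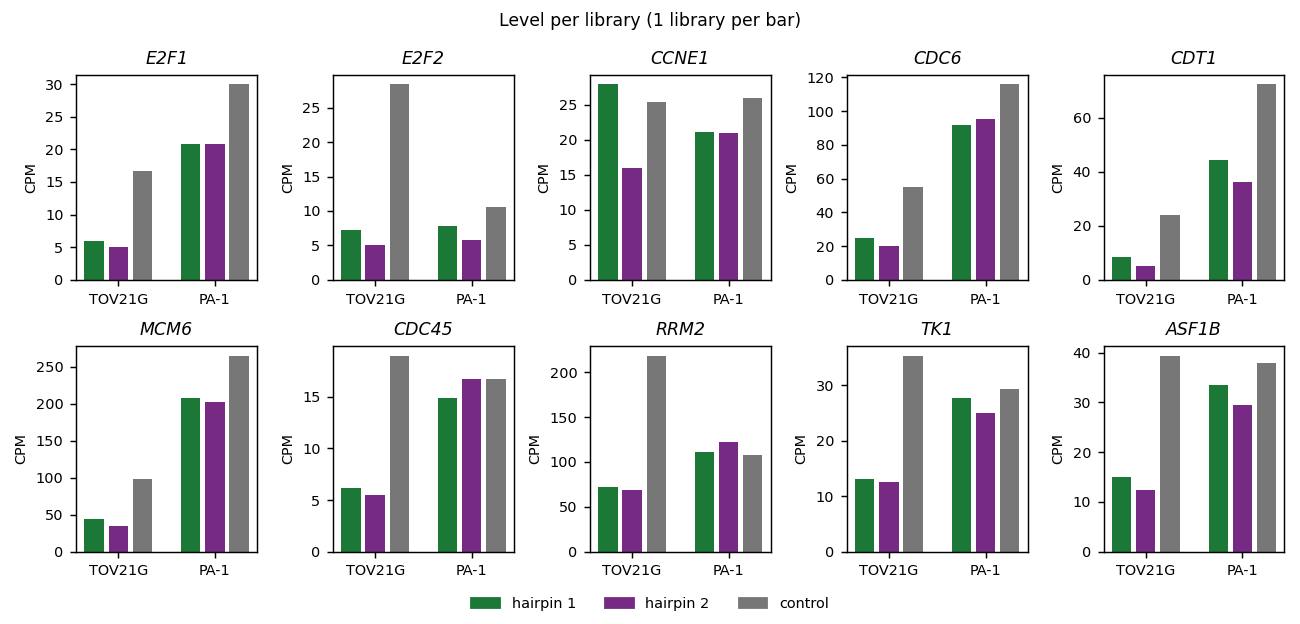
CPM of 10 genes in each library, with the TOV21G libraries left of the PA-1 libraries; bars are single libraries in the order hairpin 1, hairpin 2, control, and each panel has its own axis from 0. Both TOV21G hairpins lie below the control in every panel except that of CCNE1, where hairpin 1 at 27.9 CPM lies above the control at 25.4 CPM.

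The hairpins were not equal in effect on these genes. In TOV21G hairpin 2 gave the lower level for 52 of the 55 genes (94.5%, against 51.6% of all genes), and in PA-1 for 45 (81.8%, against 48.3%). The median log2 difference, hairpin 2 minus hairpin 1, was -0.50 in TOV21G and -0.15 in PA-1. MEX3A itself was lower with hairpin 2 than with hairpin 1 in TOV21G, at 42.3% against 51.2% of control, but higher in PA-1, at 40% against 30%. The order of the hairpins on MEX3A therefore differed between the lines, while hairpin 2 gave the lower level of most replication genes in both. In TOV21G 20 genes stood below 50% of control with hairpin 1 (against 9.17% of all genes) and 44 with hairpin 2 (against 12.0%). In PA-1 the counts were 0 with hairpin 1 (against 3.62%) and 1 with hairpin 2 (against 3.84%). The widest gap in PA-1 was that of MCM3, a log2 difference of -0.91. Some genes were close with both hairpins in TOV21G, among them RRM2, TK1, CLSPN, MCM5 and CDC45, named here after their values were seen.

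The difference between the lines was tested directly, with the PA-1 effect subtracted from the TOV21G effect. This difference was below 0 for 54 of the 55 genes, against 50.7% of all genes, and its median was -0.87, against -0.01 over all genes. An unadjusted p under 0.05 was found for 15 genes (27.3%, against 2.50% of all genes), all with the lower effect in TOV21G, and none of the 55 passed adjustment by edgeR or DESeq2. The 15 were E2F1, E2F2, CCNE2, CDC25A, CDC6, MCM6, MCM10, CDC45, CDC7, POLD3, DNA2, CLSPN, RRM2, TK1 and ASF1B. RRM2 had the largest difference, -1.76 (SE 0.33, edgeR unadjusted p = 0.00295, DESeq2 adjusted p = 0.0908). CDC45 differed by -1.63 (SE 0.41, edgeR unadjusted p = 0.00984) and TK1 by -1.31 (SE 0.36, edgeR unadjusted p = 0.0143). E2F2 differed by -1.58 (SE 0.55) and E2F1 by -1.06 (SE 0.39). CDT1, lower in both lines, differed by -0.96 (SE 0.53, edgeR unadjusted p = 0.127). CCNE1 was the exception to the direction, at 0.09 (SE 0.56). Each fit with a hairpin left out keeps 1 knockdown library in that line, and the count of 15 moved with it. The count over all genes moved as well. The median difference of the 55 genes was -1.15 without TOV21G hairpin 1, against -0.063 over all genes. It was -0.691 once hairpin 2 of that line was dropped, against -0.0655. Dropping hairpin 1 of PA-1 gave -0.816, against 0.000541, and dropping its hairpin 2 gave -0.892, against 0.00615.

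**Figure D5:**
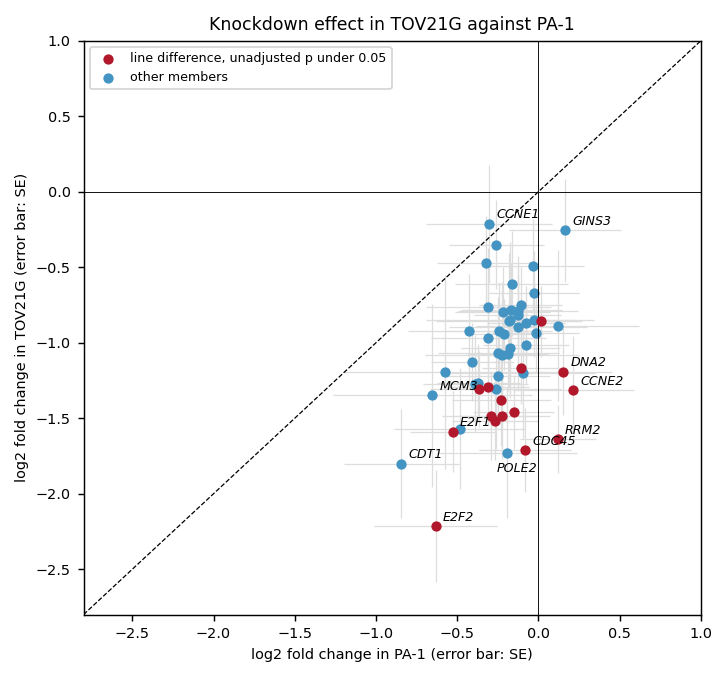
Log2 fold change of each of the 55 genes in TOV21G (vertical axis) against that in PA-1 (horizontal axis), knockdown over control, with error bars of 1 SE; red points have an unadjusted p under 0.05 for the difference between lines and the dashed line marks equal effects. All points but that of CCNE1 lie below the dashed line, and RRM2, CCNE2 and DNA2 lie right of zero in PA-1 and at or below -1.19 in TOV21G.

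The lines also differed before knockdown. On the TPM scale the median ratio of the TOV21G control to the PA-1 control was 0.517, and 27 of the 55 genes (49.1%) stood below a ratio of 0.5. Over the 15074 genes tested with a TPM above 0 in both controls, the median ratio was 0.895 and 21% stood below 0.5. The lowest ratio was that of GINS2, at 0.215. A higher level in the TOV21G control was found for 7 of the 55 genes, against 43.4% of those 15074 genes. The 7 were E2F2, CCNE2, RRM2, TK1, SLBP, CDC45 and CDK2, the last named after its values were seen, and E2F2 had the highest ratio, 2.54. CDC45 was almost level, with 22.71 TPM in the TOV21G control and 22.68 TPM in the PA-1 control. With 1 control library per line these ratios have no replicate check, and they set whole-library scalings of different cell types side by side.

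A second list held 47 replication genes outside the group, among them other E2F factors, further subunits and related enzymes. Their median log2 fold change was -0.50 in TOV21G and -0.15 in PA-1, and in TOV21G 12 were lower and 1 higher at an unadjusted p under 0.05, where 5.41% and 4.15% of all genes were. None were in PA-1. The 8 other E2F and DP factors on the list had a median of 0.19 in TOV21G, with 3 of 8 below 0 and 4 of 8 above control with both hairpins. E2F8, an atypical repressor of the E2F family, had 6.396 and 6.92 CPM in TOV21G knockdown, against 20.1 CPM (-1.59, SE 0.27, DESeq2 adjusted p = 0.0497), and 13.8 and 13.6 CPM in PA-1 knockdown, against 21.2 CPM (-0.63, SE 0.27). E2F7, its close relative, went the other way. It had 43.3 and 49.2 CPM in TOV21G knockdown, against 21.8 CPM in the control (1.08, SE 0.26, edgeR unadjusted p = 0.00765), and 67.7 and 64.0 CPM in PA-1 knockdown, against 56.5 CPM (0.22, SE 0.24). With both TOV21G hairpins E2F7 therefore lay above the control and E2F8 below it.

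DTYMK, the thymidylate kinase, had 14.6 and 14.3 CPM in TOV21G knockdown, against 30.98 CPM (-1.10, SE 0.24). TICRR, which helps load CDC45 at origins, had 13.7 and 11.7 CPM, against 25.9 CPM (-1.03, SE 0.25), and the helicase RECQL4 had 11.5 and 7.19 CPM, against 23.8 CPM (-1.35, SE 0.37), both in TOV21G. RNASEH2A, the catalytic subunit of the enzyme that removes ribonucleotides from DNA, had 11.3 and 7.93 CPM in TOV21G knockdown, against 26.1 CPM (-1.43, SE 0.31). DSCC1, part of an alternative clamp loader, had 6.66 and 8.33 CPM, against 17.8 CPM (-1.25, SE 0.27). The maintenance methyltransferase DNMT1 and its recruiter UHRF1 were lower in TOV21G as well. UHRF1 had 20.5 and 20.1 CPM, against 44.1 CPM (-1.12, SE 0.23), and DNMT1 had 108 and 71.2 CPM, against 180 CPM (-1.01, SE 0.32). In PA-1 the log2 fold changes of these 7 genes ran from -0.47 in UHRF1 to -0.05 in TICRR.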

How the data were processed

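Poly(A) RNA was sequenced as strand-marked libraries. Per the submitters' processing notes, cutadapt 1.12, STAR 2.5.3a, RSEM 1.2.31 and edgeR 3.26.8 were named with the hg38 build. The strand setting of the counting is not given in the sources used here, so genes that overlap others or share reads with copies are less certain. Per the file headers, the authors deposited RSEM expected counts and TPM per gene, where TPM scales abundance by length to a fixed total.

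Here the expected counts were rounded and tested in R 4.3.3 with edgeR 4.0.16 (TMM, filterByExpr over 4 groups, 16855 genes, quasi-likelihood F test, 2 residual degrees of freedom, Benjamini-Hochberg over all genes). SE values come from the F test, as the size of the log2 fold change over the root of F. The single control of a line was assumed to vary as the hairpins did. DESeq2 1.42.0 and limma 3.58.1 (voom) were alternatives. Differences of single hairpins from control are log2 CPM with a prior count of 2 and have no test, and both hairpins of a line share its control. Genes were called at an adjusted p under 0.05. Counts of the 6 libraries were simulated from 1 mean level per gene over both lines, with a spread set by that level. In these, 200 genes were changed in TOV21G knockdown (16204, 16175 and 16166 genes tested). After adjustment edgeR recovered 0%, 81.5% and 99.5% of changes of 1, 2 and 3 on the log2 scale. Of the changes of 1, 56.5% had an unadjusted p under 0.05. Recovery depends on these settings. Counting limits cover counting error only.

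The members and lists were chosen with earlier results of these data known. Genes named were MEX3A; in each role group the 2 smallest p in TOV21G and the smallest in PA-1; those with p under 0.05 for the line difference; any above control with a TOV21G hairpin; MCM2-7, RRM1, RRM2, CDT1 and GMNN; and the 2 smallest p in TOV21G of each further list. A gene that this rule names and a marker on a list are not reported here.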

Additional observations from a re-analysis of the deposited data

Results flagged for a closer look

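For 3 genes every PA-1 hairpin library lay above its control and every TOV21G hairpin library below it. RRM2 had 71.5 and 68.5 CPM in TOV21G knockdown, against 218 CPM, and 111 and 122 CPM in PA-1 knockdown, against 107 CPM. Its difference between the lines (effect in TOV21G less that in PA-1) was -1.76 on the log2 scale (SE 0.33, edgeR unadjusted p = 0.00295, adjusted p = 1). DNA2 had a difference of -1.34 (SE 0.42, edgeR unadjusted p = 0.0237, adjusted p = 1). GINS3 had 9.63 and 14.1 CPM in TOV21G knockdown, against 14.2 CPM, and 16.8 and 15.1 CPM in PA-1 knockdown, against 14.2 CPM. Its difference was -0.42 (SE 0.49, edgeR unadjusted p = 0.43, adjusted p = 1), which is smaller than its SE.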

How the results depend on the processing

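Over the alternatives run (other scalings, no filter, limma-voom, DESeq2, each line alone, hairpin number as block, each hairpin left out, another prior count, TPM), 23 counts moved by more than 1.5 times. The other counts stayed within 1.5 times and the median fold changes within the SD between hairpins, 114 values in all. That SD comes from the medians of the same 2 hairpins, so leaving out a hairpin of the line could hardly move its median past it. The label for those fits was therefore fixed in advance and shows no stability. The SD was 0.118 for PA-1, where the median of -0.213 was -0.304 to -0.136 with a PA-1 hairpin left out. It was 0.413 for TOV21G, where the median of -1.06 was -1.38 to -0.803 with a TOV21G hairpin left out. The genes called in PA-1, 0 by edgeR, were 36 with DESeq2. In TOV21G, also 0 by edgeR, they were 226 with DESeq2 and 0 to 1489 when a hairpin was left out. For the line difference DESeq2 called 19. The replication genes at an unadjusted p under 0.05 in PA-1 (0) were 1 with limma-voom, 5 with each line alone and 0 to 4 with a hairpin left out. In TOV21G (37) they were 24 with each line alone and 22 to 54 with a hairpin left out. For the line difference (15) they were 9 with library totals alone, 8 with DESeq2 and 1 to 49 with a hairpin left out. Replication genes at or past a 2-fold drop with both TOV21G hairpins (19) were 12 on TPM, which moved the median of all genes by 0.133 with hairpin 1, and 20 to 44 with a hairpin left out. In PA-1 (0) they were 0 to 1. A line left with 1 hairpin takes its spread from the other line, and in these fits the counts over all genes moved as well. Otherwise the cause was not tested.

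The hairpin numbers mark the same reagent in both lines and nothing else, and with the number as a replicate block edgeR called 13 genes in PA-1, with 2 replication genes at an unadjusted p under 0.05. It called 36 genes in TOV21G (49 replication genes under 0.05) and 0 for the difference (21 under 0.05). Across genes, the hairpin 1 minus hairpin 2 difference correlated between the lines at 0.236 over all genes tested and 0.496 over the 55.

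Directions of 5 named genes turned. SLBP in PA-1 was at 0.00795 with library totals alone. With 1 hairpin of the line left out, log2 fold changes in PA-1 ran from -0.0249 to 0.426 for CCNE2, from -4.51e-05 to 0.0402 for CDC25A and from -0.114 to 0.0137 for TICRR. CCNE1 ran from -0.675 to 0.132 in TOV21G and from -0.374 to 0.43 in the line difference with a TOV21G hairpin left out. Leaving out a control ended its comparison. In the simulation with 200 changed genes, edgeR recovered 0% of changes of 1 on the log2 scale after adjustment.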
